A study of Homo sapiens with 3 samples.

Results

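The hexosamine and O-GlcNAc genes described here are 10 genes taken in pathway order: GFPT1 and GFPT2 (entry), GNPNAT1, PGM3 and UAP1 (synthesis of UDP-GlcNAc), OGT and OGA (cycling on proteins), and NAGK, AMDHD2 and NPL (salvage and breakdown). They were listed by function, with earlier results of these data known, and the rule uses no measured value. There are 19970 protein-coding RefSeq genes in all. EP300, a histone acetyltransferase and coactivator that sits at active promoters and enhancers, was mapped by chromatin immunoprecipitation and sequencing (ChIP-seq) in wild-type H9 cells, an established human embryonic stem cell line. The cells were kept in the naive pluripotent state in PXGL medium, which holds PD0325901, XAV939, Gö 6983 and human LIF at 10 ng/mL, on mouse embryonic fibroblasts. The series has 1 condition, with 2 EP300 samples (replicates 1 and 2) and 1 input sample without antibody, and no sample in which OGA or OGT was changed. Every peak whose annotated gene name was a member was taken from both peak tables, which gave 28 of 65276 peaks in replicate 1 and 22 of 64896 in replicate 2.

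The hexosamine pathway turns a sugar phosphate of glycolysis and glutamine into UDP-GlcNAc, the donor for protein glycosylation. OGT moves GlcNAc from this donor onto serine and threonine of nuclear and cytoplasmic proteins, and OGA, the O-GlcNAcase named in the title of the series, takes it off again. Because the pathway draws on sugar, amino acid, acetyl and nucleotide supply, O-GlcNAc is known as a nutrient-sensitive mark.

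The RefSeq promoters (GRCh38.p14) of the entry enzyme GFPT1 and of both cycling enzymes are shown because they include the highest and the lowest value of the 10. For this, each gene is taken by its highest promoter peak. That of AMDHD2 is shown because it repeats the motif CACGTG. The AMDHD2 sequence is cut to 150 bases, while the others hold 250. Each line gives the bases right before the RefSeq start, 5′ to 3′ on the gene's strand, with capitals for any match to the motifs searched. They lie at chr2:69387228-69387477 (GFPT1, minus strand), chrX:71532854-71533103 (OGT, plus), chr10:101818445-101818694 (OGA, minus) and chr16:2520221-2520370 (AMDHD2, plus).
GFPT1: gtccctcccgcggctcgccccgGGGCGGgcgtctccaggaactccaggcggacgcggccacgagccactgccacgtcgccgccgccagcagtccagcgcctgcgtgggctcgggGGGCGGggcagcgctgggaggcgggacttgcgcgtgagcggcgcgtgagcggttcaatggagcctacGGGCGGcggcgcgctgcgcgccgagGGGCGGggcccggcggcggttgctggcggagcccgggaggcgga
OGT: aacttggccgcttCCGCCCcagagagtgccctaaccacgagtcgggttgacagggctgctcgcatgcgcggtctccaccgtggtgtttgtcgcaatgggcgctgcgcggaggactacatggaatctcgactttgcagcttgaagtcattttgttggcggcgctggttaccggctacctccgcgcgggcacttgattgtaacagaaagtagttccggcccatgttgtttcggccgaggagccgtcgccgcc
OGA: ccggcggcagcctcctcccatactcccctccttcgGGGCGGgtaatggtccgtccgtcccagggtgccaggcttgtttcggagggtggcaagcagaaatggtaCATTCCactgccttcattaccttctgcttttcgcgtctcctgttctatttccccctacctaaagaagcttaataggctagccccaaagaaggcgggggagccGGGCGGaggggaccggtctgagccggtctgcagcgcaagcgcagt
AMDHD2: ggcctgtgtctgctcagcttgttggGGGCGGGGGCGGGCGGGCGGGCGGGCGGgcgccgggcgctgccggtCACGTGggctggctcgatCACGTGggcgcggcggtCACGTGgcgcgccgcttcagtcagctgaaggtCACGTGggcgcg

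Of the motifs searched on both strands in the 250 bases before the start, the GC box GGGCGG was in 9 of 10 member windows, with 4 matches at GFPT1, 2 at OGA and 1 at OGT. Most matches were at GNPNAT1 and AMDHD2, 7 each, with 5 at GFPT2, 4 at UAP1, 2 at NPL and 1 at PGM3. This GC box was in 53.7% of the 22131 windows of coding genes. Those windows cover every RefSeq start of a gene, while each member has 1 window, at a start nearest its highest EP300 summit. At UAP1 and PGM3, which have several starts, other starts were therefore left out. The E-box CACGTG was in 2 member windows, 4 times at AMDHD2 and 1 time at NPL, and in 7.37% of all windows. The CCAAT box ATTGG was in 4 (32.7% of all windows), and the ETS motif CCGGAAG (10.7%), the TEAD motif CATTCC (10.5%) and the TATA box TATAAA (8.996%) were in 1 each, at PGM3, OGA and NPL. At AMDHD2 the CCAAT match, 174 bases before the start, and a GC box at 216 lay within the neighbouring gene ATP6V0C, outside the printed sequence. The GNPNAT1 and PGM3 windows also overlapped neighbouring genes, LOC105370500 and RWDD2A. No member window held the cyclic AMP response element TGACGTCA (2.02% of all windows), the ER stress element TGACGTGG (0.628%), the YY1 motif AAGATGG (3.36%), the AP-1 motif TGANTCA (5.35%) or the NRF1 motif (1.28%). Overlapping matches were each counted. Member windows had a median GC content of 72.8% (58.0% to 80.8%), against 62.0% in all windows, and 60.8% at both OGT and OGA. CG dinucleotides numbered 41 in the GFPT1 window, 25 at OGT and 16 at OGA, with a median of 16 over all windows. These matches describe letters and were not linked to any factor.

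EP300 was found at the promoters of 9 of the 10 genes in both replicates, with OGT as the exception. Promoter peaks, those within 3 kb of an annotated start, were counted as shared where peaks of both replicates overlapped by at least 1 bp. By the same rule 67.6% of all coding genes had a shared promoter peak, so such a peak was common. In single lists, 10 of 10 members had one in replicate 1 and 9 of 10 in replicate 2, against 70.7% of coding genes in replicate 1 and 70.7% in replicate 2. In bulk chromatin, the share of cells with EP300 at a site and the amount per cell cannot be told apart.

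Strength is given as the fold enrichment over input at the highest summit of a gene's promoter peak, the authors' own value for each peak, which is not expression. Its percentile is the rank among all peaks of the same list. Over the 13503 coding genes with a shared promoter peak the median fold enrichment was 8.92 in replicate 1 and 9.07 in replicate 2. Of the 10 members, 7 lay above these medians in both lists, and OGT, without a replicate 2 value, was not among them. The medians cover only genes with a shared promoter peak, so the like count is 7 of the 9 such members. The share of coding genes above both medians was not counted, so this number has no background here. By the lower percentile of both replicates, the median was 89.8 over the 9 members with a shared peak and 80.2 over such coding genes.

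**Figure D1:**
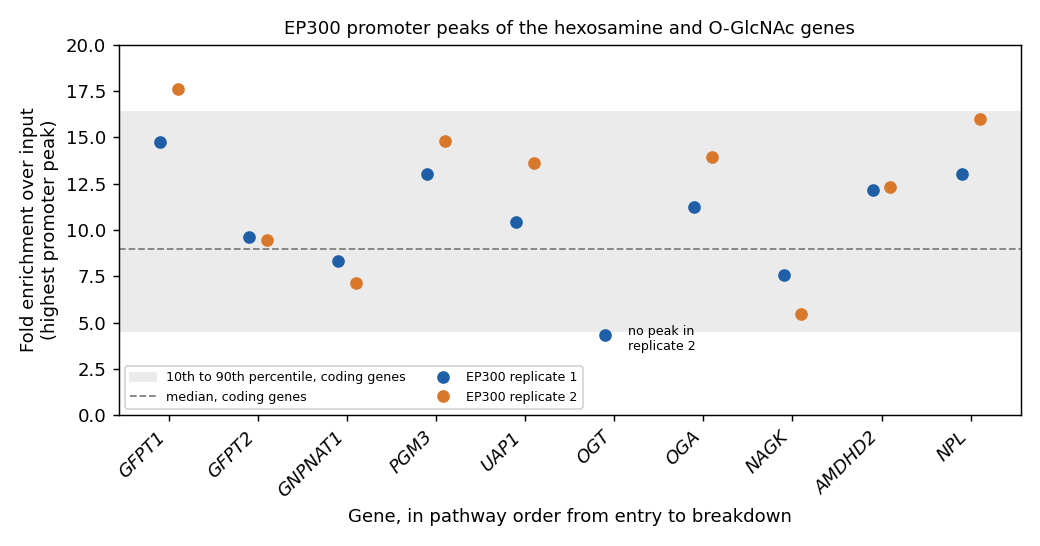
Fold enrichment over input of the highest promoter peak of each gene in pathway order, with replicate 1 in blue and replicate 2 in orange. The dashed line and grey band are the median and the 10th to 90th percentile over coding genes with a shared promoter peak, averaged over both lists; GFPT1 is highest at 14.7 and 17.6, and OGT has 1 point, at 4.34.

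The entry step is catalysed by GFPT1 or its paralog GFPT2, which join glutamine nitrogen to the sugar. GFPT1 (chromosome 2, 69319780 to 69387227, minus strand) had the strongest promoter peak of the members, with fold enrichment 14.7 in replicate 1 and 17.6 in replicate 2 (mean 16.2 ± 2.04, SD, n = 2), at percentiles 95.6 and 97.6. The peak region spanned 69386588 to 69388021 and covered the start site and the whole sequence printed above. Its main summit lay 302 bp and 257 bp inside the gene. In replicate 1 a weaker summit of 4.94 lay 273 bp upstream, which replicate 2 did not call. No other peak in either list carried the name GFPT1.

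GFPT2 (chromosome 5, 180300698 to 180353336, minus strand) differed from its paralog in layout. Its promoter region, 180351921 to 180354408, was the widest of the members, with peaks of 2425 bp and 2417 bp in replicates 1 and 2, against a median of 1281 bp and 1331 bp over coding genes. Fold enrichment was 9.61 and 9.44 (mean 9.53 ± 0.12, SD, n = 2), below both GFPT1 values. The highest summit lay 599 bp and 622 bp upstream of the start, while a second one, with fold enrichment 5.96 and 4.95, lay 341 bp and 401 bp inside the gene. Taking the summit nearest the start therefore lowers the mean from 9.53 to 5.46. A weak region at 180331101 to 180332102 also counted as a promoter peak, by the start of a short transcript within the gene, with fold enrichment 3.04 and 3.24 at percentiles 11.5 and 17.9. In replicate 2 a further peak of 3.52 near the same short transcript had no counterpart in replicate 1.

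The next steps make the nucleotide sugar. GNPNAT1, which acetylates glucosamine phosphate (chromosome 14, 52775193 to 52791607, minus strand), had a region at 52790716 to 52791817 with fold enrichment 8.33 and 7.14 in replicates 1 and 2. Both values were below the coding gene medians. Its summits lay 250 bp and 252 bp inside the gene. A separate weak peak, 2.91 and 3.91, began 324 bp and 405 bp upstream of the GNPNAT1 start and carried the name of a non-coding gene, ENSG00000285664.

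PGM3, the mutase that moves the phosphate (chromosome 6, 83148705 to 83193900, minus strand), had fold enrichment 13.0 and 14.8 in replicates 1 and 2 over 83192704 to 83194300. This peak had 2 summits in each replicate, and the weaker reached 10.8 and 9.39. The region also covered the start of RWDD2A, which lies 92 bp away on the opposite strand, so EP300 here cannot be given to 1 of the 2 genes. UAP1, which forms UDP-GlcNAc (chromosome 1, 162561531 to 162601240, plus strand), reached 10.4 and 13.6 over 162560786 to 162562271. Its 3 RefSeq starts and that of the divergent non-coding UAP1-DT, 178 bp from the nearest of them, all lay inside this region.

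**Figure D2:**
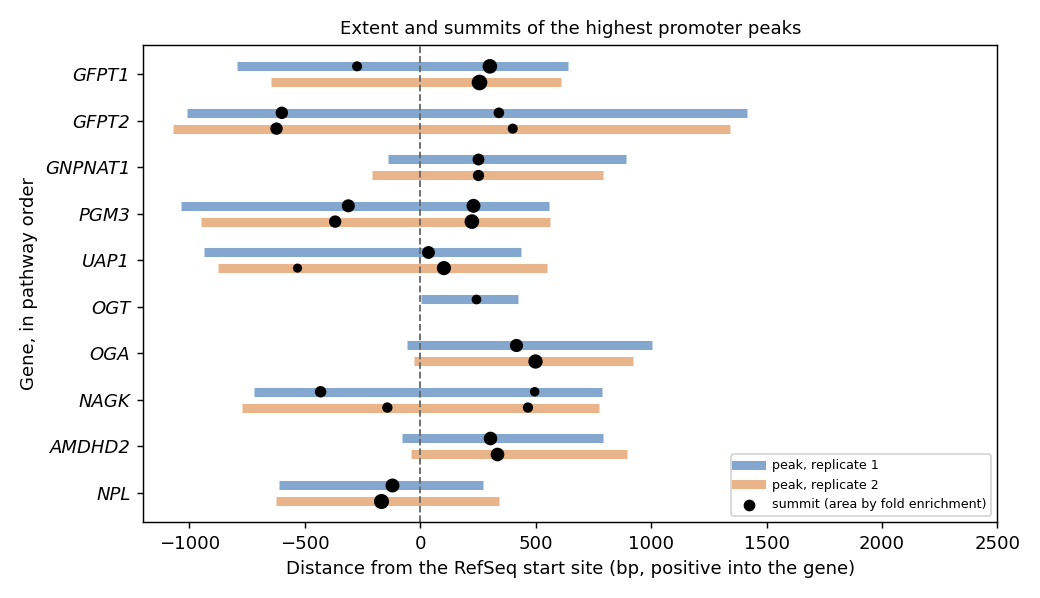
Extent (bars) and summits (black points, area by fold enrichment) of the highest promoter peak of each gene, by distance in bp from the RefSeq start, with replicate 1 in blue and replicate 2 in orange. GFPT1, GNPNAT1, PGM3, OGA and AMDHD2 have their strongest summits inside the gene, GFPT2, NAGK and NPL upstream, and the OGT bar, from replicate 1, begins just past the start.

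The opposing cycling enzymes were unlike in these lists, OGA with a strong shared peak and OGT with a weak unshared one. OGA (chromosome 10, 101784450 to 101818444, minus strand) had fold enrichment 11.2 in replicate 1 and 13.96 in replicate 2 (mean 12.6 ± 1.92, SD, n = 2), over 101817442 to 101818503. The summits lay 417 bp and 496 bp inside the gene, deeper than the strongest summit of any other member in replicates 1 and 2, and this region reached only the last bases of the sequence printed above. Upstream, a weaker peak of 3.83 and 5.21 began 483 bp and 386 bp from the OGA start and carried the name of the antisense gene KCNIP2-AS1. Just past the far end of OGA lay the promoter peak of NPM3, with 8.38 and 7.92. No distal peak in either list carried the name OGA.

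OGT (chromosome X, 71533104 to 71575892, plus strand) had 1 peak, in replicate 1, at 71533108 to 71533528. It was the narrowest member peak, 421 bp, with fold enrichment 4.34, percentile 47.0 and a -log10 q-value of 5.77, against a lowest value of 1.303 in that list. It began past the start site, with its summit 242 bp inside the gene, and did not reach the sequence printed above. In replicate 2 no peak of any name lay within 3 kb, and the nearest was 89.4 kb from the OGT start, at CXCR3. In replicate 1 the nearest other peak was also 89.1 kb away. On the X chromosome 48.8% of 848 coding genes had a shared promoter peak. Of 4313 promoter peaks of replicate 1 whose fold enrichment was within 10% of the OGT value, 76.3% overlapped a peak of replicate 2, and 124 of the 154 on the X chromosome did. The OGT value in replicate 2 is therefore known only as below the authors' threshold, not as 0.

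NAGK, AMDHD2 and NPL handle recycled amino sugars. NAGK, which phosphorylates salvaged GlcNAc (chromosome 2, 71068296 to 71079808, plus strand), had the lowest value among the 9 members with a shared promoter peak, taking each gene by its highest one, with fold enrichment 7.57 and 5.46 (mean 6.52 ± 1.49, SD, n = 2), over 71067525 to 71069082. Its highest summit lay 431 bp upstream in replicate 1 and 142 bp upstream in replicate 2, so the replicates did not place it alike. A second summit, of 4.09 and 5.42, lay 144 bp and 115 bp past the other RefSeq start of NAGK. In replicate 2 it was close to the highest one, 5.46.

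AMDHD2, which deacetylates GlcNAc phosphate and so runs against synthesis (chromosome 16, 2520371 to 2531417, plus strand), had fold enrichment 12.2 and 12.3 over 2520291 to 2521268. This was the smallest gap between replicates among the members (SD 0.0916, n = 2). The region began 73 bp past the end of ATP6V0C, and its summits lay 302 bp and 331 bp inside AMDHD2. At the other end of the gene, peaks of 10.4 and 10.8 carried the name CEMP1.

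NPL, the lyase that splits sialic acid (chromosome 1, 182789773 to 182830384, plus strand), was second in strength, with fold enrichment 13.0 and 16.0 over 182789150 to 182790115. Its summits lay 124 bp and 168 bp upstream of the RefSeq start. In replicate 1 only, NPL also had a peak of 4.26 that began 2.67 kb before the annotated start by the authors' distance and a distal peak of 5.14 at 27.4 kb upstream.

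Ordered by the mean of both replicates, the members ran GFPT1, NPL, PGM3, OGA, AMDHD2, UAP1, GFPT2, GNPNAT1, NAGK. From GFPT1 to UAP1 the replicate values of each neighbouring pair overlapped, so the order of neighbours is not resolved. Members farther apart could still differ, as GFPT1 (14.7 to 17.6) did not overlap UAP1 (10.4 to 13.6). UAP1 (10.4 to 13.6) did not overlap GFPT2 (9.44 to 9.61), nor GFPT2 the next gene, GNPNAT1 (7.14 to 8.33), while GNPNAT1 and NAGK overlapped. With 2 samples of 1 group no test was made. Replicate 2 was the higher in 6 members and the lower in 3. Over coding genes with a shared promoter peak the ratio of replicate 2 to replicate 1 had a median of 1.03 and lay between 0.785 and 1.33 from the 10th to the 90th percentile. NAGK, at 0.722, was the 1 member outside this range, and UAP1, at 1.305, was the highest.

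**Figure D3:**
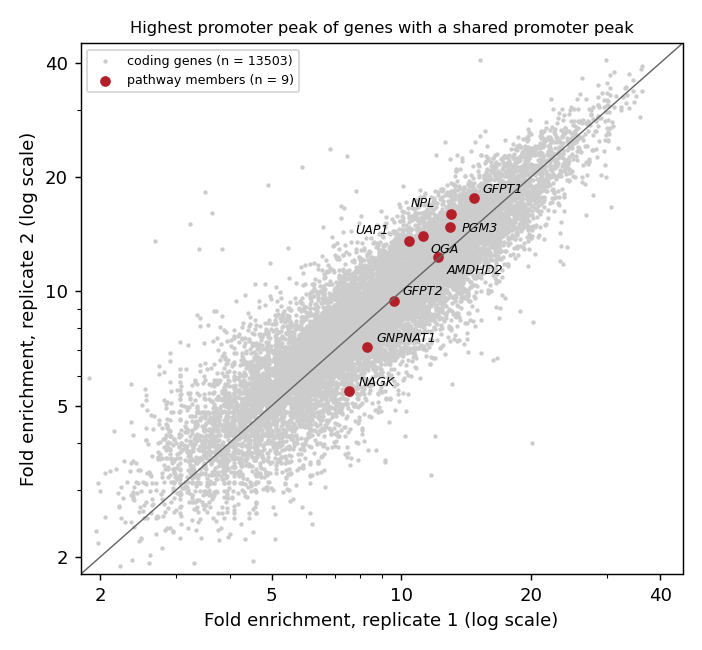
Fold enrichment of the highest promoter peak in replicate 1 (x axis) against replicate 2 (y axis), both on log scales, for the 13503 coding genes with a shared promoter peak (grey) and the 9 such members (red). The members follow the line of equal values, with NAGK the farthest below it.

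The strongest summits of the members lay near the start of transcription. In replicate 1, 9 of 10 were within 500 bp of a RefSeq start, and in replicate 2, 8 of 9, against 74.0% and 74.2% of the 10879 coding genes measured. Downstream of the nearest RefSeq start lay 7 of 10 and 5 of 9, against 71.8% and 71.7%. With so few members, the differences from coding genes were not tested.

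Distal EP300 peaks, those over 3 kb from an annotated start, were found in both replicates at GFPT2 and NAGK alone among the members. A shared distal peak was present at 20.4% of coding genes, so 2 of 10 is near the background. The number per gene was high at both, with 6 shared regions at GFPT2 and 5 at NAGK. Only 1.84% of coding genes had 5 or more, a limit chosen after these counts were seen. In 7 members the single shared region was the promoter. The share of coding genes with this layout was not counted, so this number has no background. Among coding genes a shared promoter peak (67.6%) was more common than a shared distal one (20.4%).

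The strongest GFPT2 distal region, 180343929 to 180345503, annotated as intronic, had fold enrichment 11.3 in replicate 1 and 12.3 in replicate 2. Both values exceeded those of the GFPT2 promoter, 9.61 and 9.44. Its summits lay 8.58 kb and 8.55 kb inside the gene from the RefSeq start. The next, 180366192 to 180366835, lay upstream in intergenic DNA, with 8.53 and 8.48 and summits 13.2 kb and 13.1 kb before the start. The other 4 were weaker, from 2.30 to 4.51 in replicate 1 and from 2.52 to 5.50 in replicate 2. Of these, 3 were also annotated as intronic and 1 lay upstream, and in replicate 1 a further 3 distal peaks of 3.07 to 4.005 had no counterpart.

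All 5 NAGK distal regions lay past the end of the gene, from 4.03 kb to 12.6 kb beyond it, in the stretch before MCEE. The nearest edge of MCEE, taken without regard to strand, lay 16.7 kb to 25.2 kb farther on. These regions were given to NAGK because a short NAGK transcript start was nearest, which does not show that they act on it. The strongest, at 71087973 to 71089328, had fold enrichment 9.44 and 6.73, above the NAGK promoter in each replicate (7.57 and 5.46). The other 4 ranged from 2.70 to 5.43 in replicate 1 and from 3.14 to 5.79 in replicate 2. A further replicate 1 peak of 3.47 was not found in replicate 2. At a fold enrichment of at least 5 the members kept 4 of the 11 shared distal regions, 2 at each gene.

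**Figure D4:**
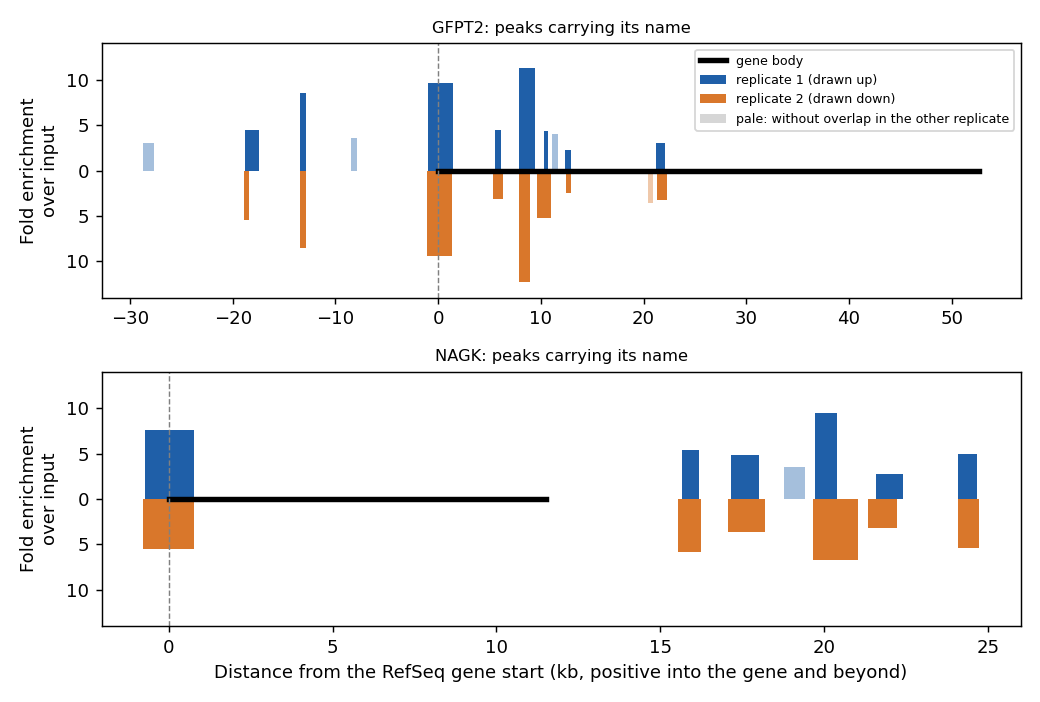
Peaks that carry the name GFPT2 (top) or NAGK (bottom) by distance in kb from the RefSeq gene start, with bar height as fold enrichment over input, replicate 1 in blue drawn up, replicate 2 in orange drawn down, and pale bars without overlap in the other replicate. The GFPT2 bars beyond the promoter lie inside the gene and in upstream DNA, while the NAGK bars beyond the promoter all lie past the black gene body.

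Related genes outside the 10 were counted in the same way. Of 26 genes that supply glucose phosphate, use UDP-GlcNAc, break down amino sugars or encode partners of OGT, 25 had a shared promoter peak: 3 of 3, 8 of 8, 8 of 8 and 6 of 7. Over all coding genes the share was 67.6%, and the difference was not tested. NANP, the phosphatase of sialic acid synthesis, had the highest mean of both replicates, with fold enrichment 19.0 and 15.2 in replicates 1 and 2, and RENBP, a GlcNAc epimerase gene, the lowest mean, with 4.86 and 6.10. In replicate 2 alone HCFC1 was above NANP, and GNE (4.71) and TET2 (5.85) were below RENBP. BAP1, a deubiquitinase gene, had no peak of its own name, but a peak named PHF7 covered the end of BAP1 that faces PHF7, with 6.82 and 10.4. Counting went by name, so BAP1 stayed uncounted although that peak lay at the gene. HCFC1, the cell cycle cofactor that OGT cleaves, reached 14.1 and 17.3, against 4.34 in replicate 1 for OGT itself. HK1, a hexokinase gene, had most distal regions, 5 of the 8 found at 4 of these genes. Of the marker genes, 9 of 10 naive, 3 of 3 shared pluripotency and 4 of 7 fibroblast genes had a shared promoter peak, against the same 67.6%. Values ranged widely in each list, with naive DPPA3 at 3.56 and 3.14, KLF5 at 4.42 and 4.19 and TFAP2C at 22.4 and 27.1, and fibroblast COL1A2 at 18.2 and 20.1. Promoter peaks do not measure expression, so these counts neither bear out nor contradict the labelled cell type.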

How the data were processed

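EP300 ChIP-seq in 2 samples was analysed. The input sample entered only through the authors' enrichment. Peaks were called per sample against input, by the names in the deposited tables, and annotated with ChIPseeker. Crosslinking took 10 min in 1% formaldehyde, per the labels' protocols. The submitters' processing notes name fastp 0.19.11 and GRCh38. No source used here names the aligner, the caller or its threshold. The deposited fold enrichment is a ratio at each summit, and the deposited tables add both p and q, each as -log10. Read depth is unknown.

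Rows of equal interval were joined, keeping the highest summit (Python 3.11.15, pandas 2.3.3). Chromosomes 1 to 22 and X were used. Genes were taken by the authors' gene name, and 10 of 10 members matched RefSeq GRCh38.p14. For coding genes, older symbols were also matched. Promoter meant within 3 kb of the authors' start, distal anything farther. Windows, motifs and starts came from RefSeq. The sharing rule was run on simulated peaks whose overlap was set in advance, which checks the code and not the rule's fitness for these data. Members and lists were chosen with earlier results of these data known, and no p-value is given. Every member is named. Of the related genes, those highest, lowest, without a shared promoter peak of their own name or with most distal regions are named. HCFC1 was chosen after its values were seen. Nothing says the samples came from separate cultures, so their spread may be technical.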

Additional observations from a re-analysis of the deposited data

How the results depend on the processing

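Of the counts, background shares and the median percentile, 32 recomputed values stayed within their limits and 4 moved. At a fold enrichment of at least 5 the shared distal regions of the members numbered 4, against 11, and 9.90% of coding genes had a shared distal peak, against 20.4%. The median percentile of the 9 shared promoter peaks, 89.8 by the lower replicate (80.2 over coding genes with a shared promoter peak), was 83.0 among promoter peaks alone. The coding gene value among promoter peaks alone was not computed, so 83.0 has no background. Leaving out 1 replicate gave a median percentile among all peaks of 89.8 to 93.7. Leaving out 1 replicate also gave 9 to 10 members with a promoter peak, 2 to 3 with a distal peak and 11 to 16 distal regions. It gave promoter shares of 70.66% to 70.68% and distal shares of 26.2% to 26.7% of coding genes. With the summit nearest the authors' annotated start, GFPT1 had a mean fold enrichment of 11.3 against 16.2 and GFPT2 5.46 against 9.53. For GFPT1 this joins the upstream summit of replicate 1 (4.94) with the only summit of replicate 2 (17.6). NAGK stayed at 6.52 by that start, but its summit closest to a RefSeq start was 4.09 in replicate 1 and 5.42 in replicate 2. By position within 3 kb of the RefSeq 5′ end, whatever the name, 75.5% of 18864 coding genes were occupied, and still 9 members. No paired analysis was possible because the series has 1 EP300 group. Without read counts, what depth limits cannot be said.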
